A study of Mus musculus with 8 samples.

Results

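The 53 genes described here encode SR proteins, heterogeneous nuclear ribonucleoproteins (hnRNPs) and proteins of the small nuclear ribonucleoproteins (snRNPs). They were taken as every protein-coding row of the deposited count table whose symbol begins with Srsf and a number, with Hnrnp, with Sf3a or Sf3b and a number, or with Snrp. The table held 45777 genes, of which 21949 were protein-coding, and the rule found 11 SR proteins, 21 hnRNPs and 21 snRNP proteins. The rule used symbols only and no measured value, but it was set with earlier results of these data known. One hnRNP row, Hnrnpa1l2-ps2, is listed as protein-coding although its name marks a pseudogene, and it was kept. Srsf12 had at most 5 counts in any library and was left out by the low-count filter, so 52 members were tested.

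RNA sequencing was done on colonic organoids, three-dimensional cultures grown in Matrigel from colonic crypts (male donors, 9 weeks of age), collected 3 days after passage, at most 15 passages old and with no further treatment. The mice had C57BL/6J as the named strain, and both genotypes derive from an allele of Reg3a with loxP sites around exons 2 to 4. In the knockout (KO, Reg3aΔIEC, 4 libraries, replicates 5 to 8) Cre driven by the Villin promoter deletes the gene in intestinal epithelium, and the floxed controls (Reg3afl/fl) are labelled WT (4 libraries, replicates 13 to 16). The labels contradict themselves on replication: they name 1 mouse per genotype with 4 wells, but also 3 mice each, in triplicate. Every p-value therefore measures only how far these libraries vary, possibly for technical reasons, and genotype cannot be told apart from mouse or organoid line. In bulk RNA, fewer cells of a type and less RNA per cell cannot be told apart.

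Library totals ran from 37182098 to 49256171 counts, and limits from counting cover counting error only. Reg3a, the targeted gene, had 0 counts in all 8 libraries and could not check the genotype labels. Epithelial markers summed to between 10123 and 11128 CPM in every library. The fibroblast markers Col1a2, Dcn and Lum had no count at all, and all 6 fibroblast markers summed to at most 0.371 CPM. The 6 immune markers, of which the T cell marker Cd3e had no count, summed to 27.9 to 43.6 CPM in KO and 30.4 to 42.8 CPM in WT. The 1 immune marker tested was lower in KO. Endothelial markers, none of them tested, summed to at most 1.32 CPM in KO and 0.0480 CPM in WT. Colonocyte markers were higher in KO (6 of 8 tested rose and 1 fell, with sums of 5281 to 5578 CPM in KO and 3125 to 3699 CPM in WT), and 18 of 20 cell cycle genes were lower (sums of 1749 to 1852 CPM against 2131 to 2340 CPM). Goblet cell markers (4 of 7 tested) and stem cell markers (3 of 5 tested) were also lower in part, with sums of 108 to 136 against 151 to 203 CPM and of 462 to 487 against 469 to 508 CPM. Enteroendocrine markers (2 of 5 tested, sums of 18.3 to 26.7 against 26.6 to 38.7 CPM) and the 1 tuft cell marker tested were lower as well. The share of counts on mitochondrial protein genes was 1.30% to 1.62% in KO and 0.923% to 1.13% in WT, that on rRNA genes 0.0997% to 0.116% and 0.0710% to 0.0959%, and that on protein-coding genes 97.37% to 97.49% and 97.52% to 97.84%, with no overlap between genotypes in any of these 3. Sums of colonocyte, goblet cell and cell cycle genes did not overlap between genotypes either, while those of epithelial, immune, stem cell, enteroendocrine and tuft cell markers did. What moved with genotype moved with each difference below, and the part of any of these measures in it was not tested. CPM stands for counts scaled to 1 fixed library size, with TMM factors between libraries.

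Introns are removed from pre-mRNA by the spliceosome, which assembles anew on each intron from U-rich snRNPs. A ring of 7 Sm proteins sits on the small nuclear RNA of most of them, and particle-specific proteins such as SF3A and SF3B in the U2 snRNP hold the branch site. SR proteins carry an RNA-binding domain and a serine- and arginine-rich tail, bind mostly to exons and recruit the spliceosome. The hnRNPs coat nascent RNA and often act against them. All 3 kinds of protein are made in every nucleated cell, the intestinal epithelium included.

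Of the 52 members tested, 7 were lower in KO and 0 higher (quasi-likelihood test in edgeR, adjusted by Benjamini-Hochberg over all genes tested, threshold 0.05). Those that fell were the hnRNP genes Hnrnph3, Hnrnpc, Hnrnpdl and Hnrnpa1 and the snRNP genes Snrpg, Snrpf and Snrpa1. By that call 8.26% of all 14945 genes tested were lower and 7.63% higher, against 13.5% of the members lower. The members varied less between libraries than all genes, with a median SD over mean of 3.24% against 5.71% in KO and 6.22% against 8.24% in WT. Small differences are called more readily where spread is small, and the share called among genes of like level was not counted. At an unadjusted p under 0.05, 14 members were lower and 1 higher, but the share of all genes at that threshold was not counted, here or below. DESeq2 and limma-voom also called 7 lower and 0 higher. The called differences were small: the 7 members were 9.21% to 19.9% lower, and the median log2 fold change of the 52 members was -0.068, against -0.0012 over all genes.

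All 7 members that fell had a promoter entry, and 4 of them are shown: those whose exon-free stretch nearest to the start reached 80 bases. The sequences are from RefSeq (GRCm38.p6), which had an entry for 47 of the 53 members, and each is the 80 bases nearest to the RefSeq start that hold no exon of the gene in GENCODE vM21. Capitals mark matches to CCAAT (or ATTGG on the other strand) and to GGGCGG (or CCGCCC), and no other motif searched was found in them. RefSeq's gene extents do not always begin where its promoter entry puts the start: the Hnrnpa1 stretch lies 374 bases after the outermost start of that gene, and 11 of the 80 bases of Hnrnpc lie inside its gene, while those of Snrpf and Snrpa1 lie wholly outside.
Hnrnpa1 (chr15:103240317-103240396, plus strand): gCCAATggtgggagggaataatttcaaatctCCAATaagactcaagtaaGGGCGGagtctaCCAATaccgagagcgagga
Hnrnpc (chr14:52104029-52104108, minus strand): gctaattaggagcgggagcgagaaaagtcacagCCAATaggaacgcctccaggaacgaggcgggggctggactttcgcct
Snrpf (chr10:93589707-93589786, minus strand): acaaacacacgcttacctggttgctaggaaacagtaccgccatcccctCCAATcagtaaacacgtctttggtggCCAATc
Snrpa1 (chr7:66060219-66060298, plus strand): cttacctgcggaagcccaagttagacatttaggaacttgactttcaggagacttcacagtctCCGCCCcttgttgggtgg
The Hnrnpa1 stretch held 3 matches to CCAAT, that of Snrpf 2 and that of Hnrnpc 1. Over the full windows of 300 bases in the RefSeq table, CCAAT was found for 4 of the 7 genes that fell and for 41.1% of all 27025 genes with a promoter entry. A match describes letters only, and says nothing of a bound factor.

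The motifs were not spread evenly over the classes, a difference that was not tested. The ETS-type motif CCGGAAG, read on both strands, was present for 10 of 17 snRNP proteins, 4 of 11 SR proteins and 2 of 19 hnRNPs, and for 9.93% of all genes, or 19.4% of the 11074 genes that were both tested and in the promoter table. CCAAT was present for 14 of 19 hnRNPs, 6 of 17 snRNP proteins and 4 of 11 SR proteins (41.1% of all genes and 42.9% of those tested). The E-box CACGTG was present for 5 of 19 hnRNPs, 1 of 17 snRNP proteins and no SR protein (8.09% of all genes and 11.5% of those tested). GGGCGG was found for 10 of 11 SR proteins, 14 of 19 hnRNPs and 9 of 17 snRNP proteins (70.2% of the members, 38.2% of all genes and 65.9% of those tested). The remaining motifs searched, GCATGCGC (NRF1), TATAAA and AAGATGGC (YY1), were found for 3, 8 and 2 of the 47 members. In the same order they were found for 3.05%, 15.7% and 3.19% of all genes, and for 5.57%, 9.66% and 5.13% of those tested. In the snRNP group the ETS-type matches that lay whole with 10 bases on each side before the RefSeq start are given, for 7 genes, each written so that the motif, in capitals, reads CCGGAAG.
Snrpg (chr6:86371385-86371411, plus strand): ggcgacgcaaCCGGAAGcgtggctctg
Snrpc (chr17:27840038-27840064, plus strand): agggcagaggCCGGAAGcggaagtcct
Snrpb2 (chr2:143063031-143063057, minus strand): cttccccgcgCCGGAAGagggcggcca
Sf3a2 (chr10:80798649-80798675, plus strand): gcctttgctcCCGGAAGggatcgcttc
Sf3a3 (chr4:124714761-124714787, minus strand): tccgcgtgtcCCGGAAGtgtcttgggg
Sf3b3 (chr8:110847016-110847042, plus strand): cctcgcaagcCCGGAAGcgcccaccgg
Sf3b6 (chr12:4817513-4817539, minus strand): ggattgcggaCCGGAAGgggcggggcg
Sf3b6 (chr12:4817528-4817554, plus strand): ggtccgcaatCCGGAAGcgttctggag
By GENCODE vM21 the windows of Snrpg, Snrpc and Sf3a2 lie wholly in an annotated exon of the gene (27 of 27 bases), those of Snrpb2 (19 bases), Sf3a3 (12) and the second of Sf3b6 (11) in part, and those of Sf3b3 and the first of Sf3b6 not at all. Of these 7 genes Snrpg fell, and the other 6 did not pass the test.

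The levels per transcript length, in the TPM the authors deposited, set the scale of each class. Hnrnpa1, which binds splicing silencers, was the most abundant at a mean of 575 ± 31.5 TPM (SD over 8 libraries), followed by Hnrnpa2b1 at 560 ± 45.6 TPM, which did not differ from it beyond their spread, and by the poly(C)-binding Hnrnpk at 431 ± 19.7 TPM. Among SR proteins Srsf5 led at 307 ± 22.3 TPM, well above Srsf3 (118 ± 9.75 TPM) and Srsf2 (113 ± 7.80 TPM), which lay within their spread of each other. At the low end of that class, Srsf12 had 4 or 5 counts in 4 libraries and 0 in the others, where 0 counts allow at most 0.0646 to 0.0807 CPM. The Sm ring takes its proteins in equal number, yet their mean transcript levels ran from 97.7 TPM for Snrpf to 270.1 TPM for Snrpe. Sf3a1, Sf3a2 and Sf3a3, the SF3A subunits, lay close together, with Sf3a3 at 44.9 TPM, and the SF3B subunits between 39.7 TPM (Sf3b3) and 160 TPM (Sf3b2).

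**Figure D1:**
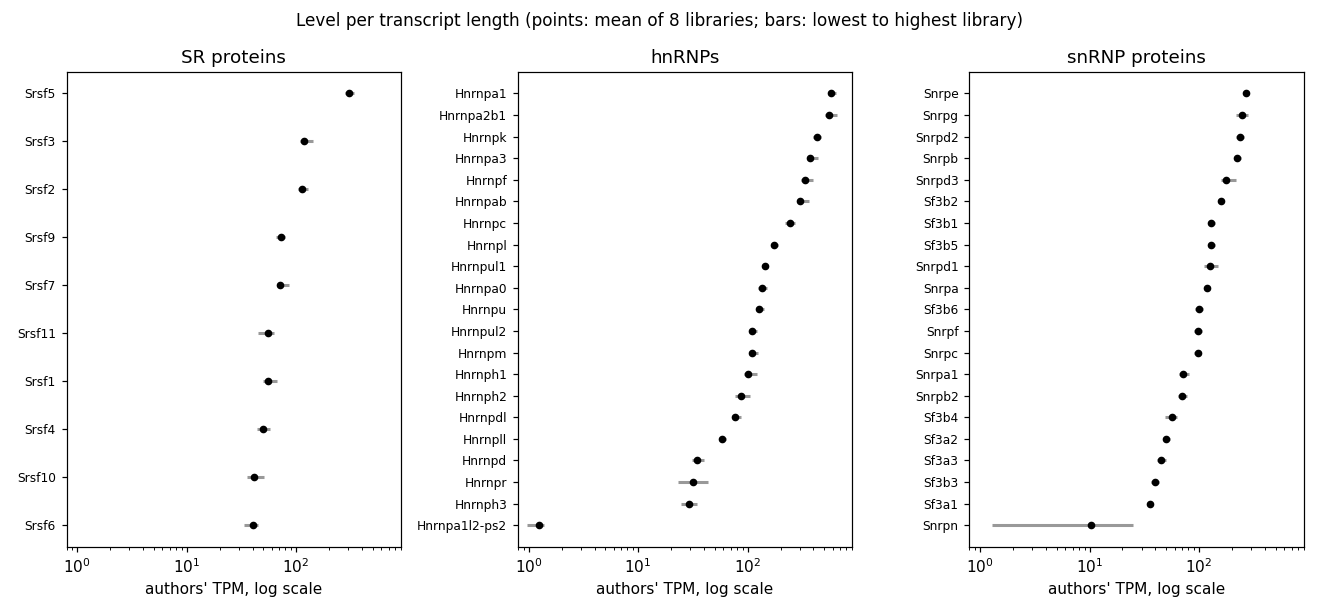
Level of each tested member in the authors' TPM on a log axis, by class; points are means of 8 libraries and bars run from the lowest to the highest library. Srsf5 stands above the other SR proteins, Hnrnpa1 and Hnrnpa2b1 lead the hnRNPs, and Snrpn has by far the widest bar.

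None of the 10 SR proteins tested passed the test in either direction, and their fold changes ran to both sides of 0. The class median log2 fold change was -0.015, with 7 genes below 0 and 3 above. DESeq2 and limma-voom called none either, and at an unadjusted p under 0.05 there were 2 lower (Srsf7 and Srsf4) and 1 higher (Srsf6). Srsf7, a shuttling SR protein that also takes part in export of mRNA, stood at 80.2 ± 3.07 CPM in KO against 88.4 ± 7.16 CPM for WT (± SD of 4 libraries), which is -0.14 ± 0.06 SE on the log2 scale (edgeR adjusted p = 0.116). Srsf4 stood at -0.12 ± 0.05 (SE, edgeR adjusted p = 0.15). Srsf6 was in the other direction at 0.15 ± 0.06 (SE, edgeR adjusted p = 0.135). Its KO libraries were 75.9, 76.5, 76.1 and 75.6 CPM and its WT libraries 65.7, 66.8, 79.2 and 61.7 CPM. The KO values of Srsf6 were nearly identical, and of the WT values only that of replicate 15 lay above them.

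The most abundant SR genes did not pass either. Srsf5 measured 251 ± 12.3 CPM in KO against 241 ± 16.3 CPM for WT (log2 difference 0.06 ± 0.05, SE; edgeR adjusted p = 0.532), and Srsf3, which controls its own message through an exon with a stop codon, 155 ± 3.25 and 164 ± 16.6 CPM (-0.08 ± 0.06). Srsf2, an exonic enhancer-binding protein, had a log2 fold change of -0.01 ± 0.05, Srsf1, the founding member of the family, -0.0033 ± 0.07, and Srsf9 0.0033 ± 0.05. Srsf10 and Srsf11 stood at -0.03 and -0.02. A test not passed does not show that these levels are equal, but each SE is below 0.08 on the log2 scale. Of the regulators of SR proteins, 3 of 10 tested kinases, phosphatases and import factors fell and none rose (beside 8.26% and 7.63% of all genes). Clk3, a kinase that phosphorylates SR proteins in the nucleus, fell, averaging 77.3 ± 4.29 CPM over the 4 KO libraries against 95.8 ± 6.36 CPM over the 4 WT libraries (± SD), a log2 difference of -0.31 with an SE of 0.06 (edgeR adjusted p = 0.00221). Its relative Clk1 fell by 0.19 and the phosphatase subunit gene Ppp1ca by 0.11 on the log2 scale. Of 14 tested SR-related proteins 0 passed in edgeR, with 0 at an unadjusted p under 0.05, and the most abundant, Srrm1, had a log2 fold change of 0.0089 ± 0.04.

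Among hnRNPs 4 of 21 were lower in KO (19.0%, beside 8.26% of all genes), with a class median of -0.057. Of their fold changes 20 of 21 were below 0 (14 of 21 without WT replicate 15), beside 50.4% of all genes tested. Hnrnph3, of the F/H family that binds runs of G, showed the largest drop. Its KO libraries were 21.5, 21.9, 20.6 and 20.8 CPM and its WT libraries 25.2, 25.9, 26.4 and 28.4 CPM. Every WT library exceeded every KO library, and Hnrnph3 fell by 0.32 on the log2 scale (SE 0.05, edgeR adjusted p = 0.00131). Rufy2, which overlaps Hnrnph3 on the other strand and whose reads cannot be told apart from it unless strand was used in counting, had a log2 difference of 0.27 ± 0.14 (edgeR adjusted p = 0.248). The close relatives of Hnrnph3 did not pass: Hnrnph1 stood at -0.15 ± 0.05 (edgeR adjusted p = 0.0746), Hnrnph2 at -0.0074 ± 0.07 and Hnrnpf at -0.06 ± 0.05. Only pairs within a class and of like coding length were aligned, 225 in all. Among these, Hnrnph1 and Hnrnph2 were the 1 pair with coding sequences at least 80% identical over the whole alignment (80.9%, GENCODE vM21). The split of reads between these 2 genes is therefore uncertain.

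Hnrnpc, which binds runs of U and packages nascent transcripts, measured 336, 335, 311 and 323 CPM in KO and 382, 355, 389 and 359 CPM in WT. Again no KO library reached a WT library, and the log2 difference came to -0.19 ± 0.04 (SE, edgeR adjusted p = 0.0101). Hnrnpdl, a relative of Hnrnpd, averaged 106 ± 3.97 CPM over the KO libraries and 118 ± 4.52 CPM over the WT libraries (SD of 4), and fell by 0.16 on the log2 scale (edgeR adjusted p = 0.0255). It overlaps Enoph1 on the other strand, which had a log2 difference of -0.13 ± 0.05 (edgeR adjusted p = 0.0861). Hnrnpa1 measured 508, 523, 516 and 506 CPM in KO and 569, 553, 592 and 546 CPM in WT. Its groups did not overlap, and it fell by 0.14 on the log2 scale (SE 0.04, edgeR adjusted p = 0.0213). Leaving out KO replicate 5, 7 or 8, or WT replicate 13, ended the calls of both Hnrnpa1 and Hnrnpdl (edgeR adjusted p = 0.0525 to 0.0955), while those of Hnrnph3 and Hnrnpc held under all 16 alternative fits.

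The other members of the A/B family did not pass the test. Hnrnpa2b1, which recognises GU- and AG-rich RNA, was at 651 ± 16.3 CPM in KO against 677 ± 68.6 CPM for WT (SD of 4 libraries), with a log2 difference of -0.06 ± 0.06 (SE; edgeR adjusted p = 0.578), Hnrnpa3 at 955 ± 10.7 and 989 ± 90.3 CPM, and Hnrnpab at 375 ± 3.94 and 386 ± 40.1 CPM. Hnrnpd, also called AUF1, was the 1 hnRNP with a fold change above 0, at 0.0008. Hnrnpk, the third most abundant per length, stood at 610.0 ± 11.8 CPM in KO, with 615 CPM as the WT mean and 575 to 660.3 CPM as its range. Hnrnpl (-0.05 ± 0.04), Hnrnpm (-0.10 ± 0.05) and Hnrnpul1 (-0.07 ± 0.04) did not pass, although the Hnrnpul1 libraries of the genotypes did not overlap. The pseudogene-named Hnrnpa1l2-ps2 had below 1 CPM (0.682 ± 0.0830 in KO, 0.795 ± 0.0576 in WT) and a log2 fold change of -0.22 ± 0.21, and by its name it is a copy related to Hnrnpa1, so that reads may be split between them. The 5 hnRNPs not given here, Hnrnpa0, Hnrnpll, Hnrnpr, Hnrnpu and Hnrnpul2, lay between -0.06 and -0.02.

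**Figure D2:**
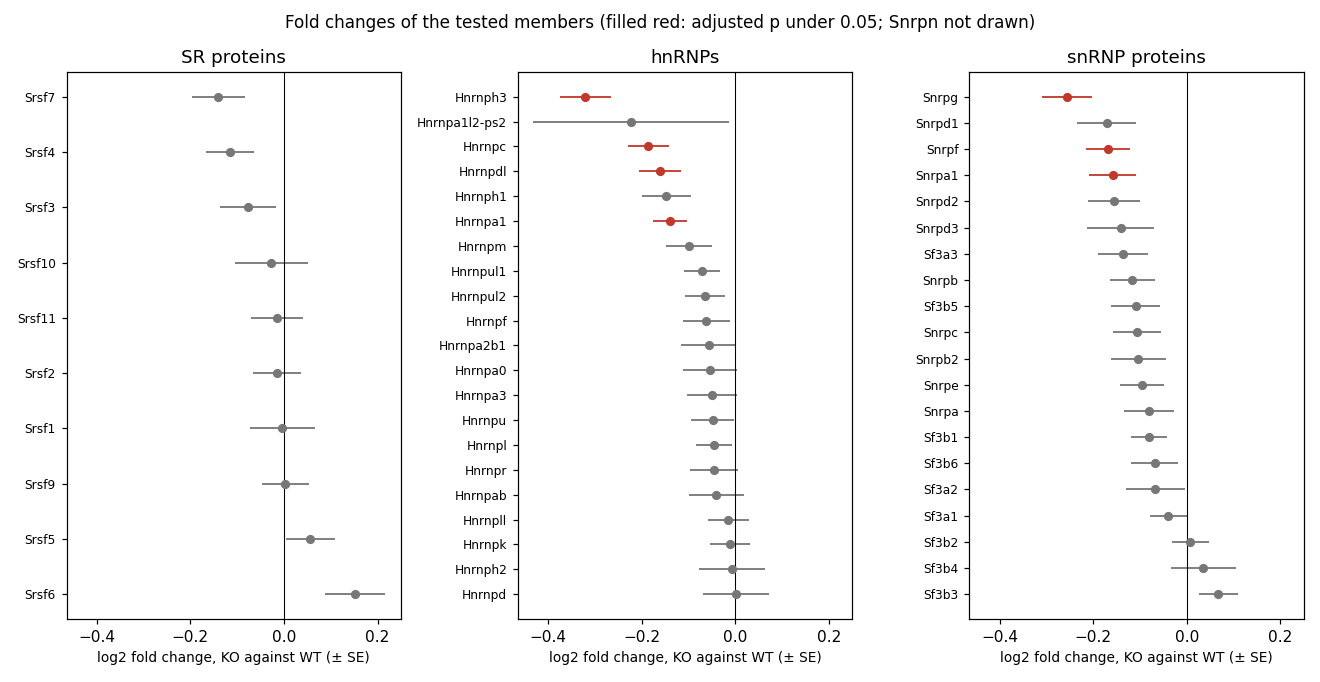
Log2 fold change of KO against WT with its SE for each tested member except Snrpn, by class; red marks an edgeR adjusted p under 0.05. The 4 called hnRNPs and 3 called snRNP proteins lie below 0. In all, 20 of 21 hnRNPs (14 without WT replicate 15) and 17 of 21 snRNP proteins have values below 0, beside 50.4% of all genes tested.

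Among snRNP proteins 3 of 21 were lower in KO (14.3%, beside 8.26% of all genes) and none was higher. Of their fold changes 17 were below 0 (beside 50.4% of all genes tested), with a class median of -0.10. Both called Sm proteins belong to the E-F-G part of the ring. Snrpg, the Sm-G protein, measured 45.2, 46.7, 43.0 and 42.5 CPM in KO and 52.4, 53.9, 48.9 and 56.6 CPM in WT. All WT libraries lay above all KO libraries, and Snrpg fell by 0.26 on the log2 scale (SE 0.05, edgeR adjusted p = 0.00576). Snrpf, the Sm-F protein, measured 37.1, 39.8, 37.9 and 36.6 CPM in KO and 41.2, 41.6, 43.7 and 43.7 CPM in WT. Its groups did not overlap either, and it fell by 0.17 (SE 0.05, edgeR adjusted p = 0.0281). The call of Snrpg held under all 16 alternative fits, whereas that of Snrpf was lost on leaving out KO replicate 5, 7 or 8, or WT replicate 16 (edgeR adjusted p = 0.0583 to 0.102). Ccdc38, which overlaps Snrpf on the other strand, had too few counts to test.

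With Snrpn set aside, all 7 Sm ring genes had fold changes below 0, from -0.26 for Snrpg to -0.10 for Snrpe. Snrpd1 (-0.17 ± 0.06 SE), Snrpd2 (-0.16 ± 0.06), Snrpd3 (-0.14 ± 0.07), Snrpb (-0.12 ± 0.05) and Snrpe (-0.10 ± 0.05) did not pass (edgeR adjusted p = 0.0773 to 0.211). Snrpe, the most abundant snRNP gene per length, was at 65.0 ± 3.28 CPM in KO against 69.5 ± 1.75 CPM for WT (SD, n = 4), and Snrpd2 at 57.7 ± 1.07 and 64.3 ± 5.05 CPM. Snrpa1, which encodes the U2-specific protein A′, measured 45.6, 43.0, 42.4 and 40.6 CPM in KO and 47.8, 48.0, 50.3 and 45.5 CPM in WT. KO replicate 5 lay just above WT replicate 16, so the groups overlapped, and Snrpa1 fell by 0.16 (SE 0.05, edgeR adjusted p = 0.0489). That call was the least stable of the 7: it held under 6 of 16 alternatives and ended under each other scaling (edgeR adjusted p = 0.0513 to 0.0543), without a low-count filter (0.0831) and without 6 of the 8 libraries (0.0818 to 0.172). Its partner Snrpb2, the U2-specific protein B″, had a log2 fold change of -0.10 ± 0.06, and the U1-specific Snrpa and Snrpc -0.08 ± 0.05 and -0.11 ± 0.05.

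In the branch-site complexes SF3A and SF3B no subunit covered by the naming rule passed the test. In SF3A, Sf3a3 stood at -0.14 ± 0.05 (SE, edgeR adjusted p = 0.102), with libraries of 36.8, 37.2, 35.1 and 37.9 CPM in KO and 38.4, 38.3, 42.5 and 42.5 CPM in WT. Its groups did not overlap. The remaining SF3A subunits, Sf3a1 and Sf3a2, and Sf3b6 of SF3B lay between -0.07 and -0.04. In SF3B the values fell on both sides of 0. Sf3b1, the scaffold that closes around the branch site and the most counted snRNP gene, was at 390 ± 7.45 CPM in KO against 412 ± 16.3 CPM for WT (log2 difference -0.08 ± 0.04, SE; edgeR adjusted p = 0.19), and Sf3b5 had a log2 fold change of -0.11 ± 0.05, while Sf3b2 (0.0073), Sf3b4 (0.03) and Sf3b3 (0.07 ± 0.04) were above 0. Sf3b3 was the 1 member whose KO libraries all exceeded the WT libraries. In all, 8 of 52 members had every KO library below every WT library (10.3% of all genes) and 1 of 52 the reverse (9.91% of all genes). Summed in the authors' TPM, snRNP proteins came to 2418 ± 18.9 in KO and 2555 ± 23.9 in WT (SD, n = 4), hnRNPs to 3988 ± 38.2 and 4103 ± 326, and SR proteins to 935 ± 25.4 and 917 ± 78.2. The sums of the genotypes overlapped for hnRNPs and SR proteins and did not overlap for snRNP proteins.

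**Figure D3:**
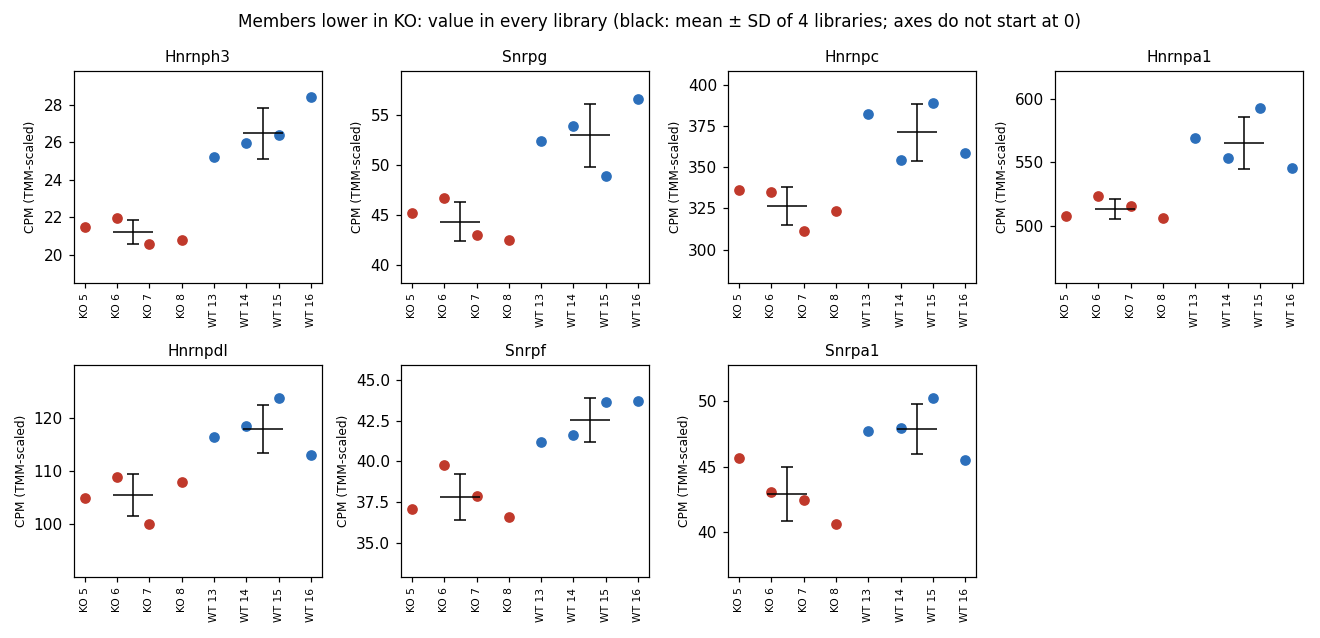
CPM of the 7 members lower in KO in each of the 8 libraries (red KO, blue WT), with the mean and SD of 4 libraries in black; the axes do not start at 0. The genotypes are separated for 6 genes and overlap for Snrpa1.

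One library stood apart in 2 of the 3 classes. WT replicate 15 was the highest of the 8 libraries for 7 of 10 SR proteins and 16 of 21 hnRNPs but only 3 of 21 snRNP proteins, against 16.6% of all genes tested and 20.1% of the 7480 genes with a mean of at least 20 CPM. The median deviation of its SR proteins from their mean over all libraries was 0.15 on the log2 scale, where the other 7 libraries lay between -0.07 and 0.0095. For hnRNPs it was also 0.15, with the others between -0.04 and 0.02, and for snRNP proteins 0.02, within the -0.07 to 0.08 of the others. Srsf1 measured 142, 139, 179 and 138 CPM in the WT libraries and between 147 and 153 CPM in KO. Srsf10 showed the largest excess, 29.1% above the mean of the other WT libraries, followed by Srsf1 (27.6%) and Hnrnph2 (25.7%). Snrpd3 (23.4%) and Snrpd1 (14.8%) were the snRNP genes more than 10% above the other WT libraries, followed by Sf3a3 (6.88%). Snrpn differed by -84.7%, Sf3b4 by -18.0% and Snrpd2 by -14.2% from the other WT libraries, and the median over snRNP proteins was 0.17%. The members took 0.974% of all counts in this library and 0.861% to 0.886% in the other 7.

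**Figure D4:**
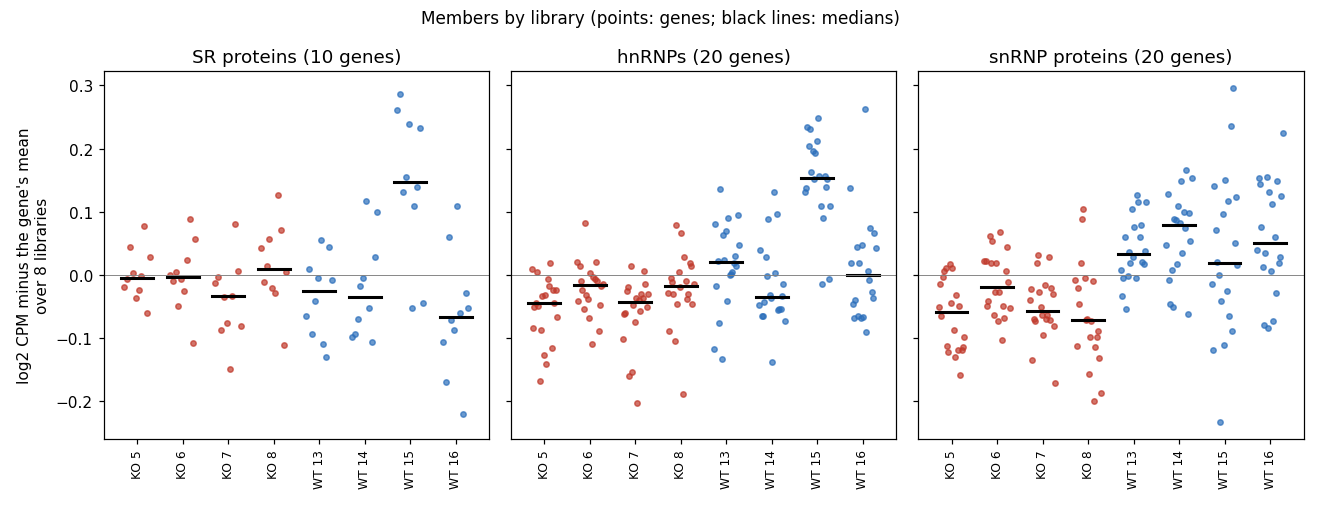
Log2 CPM of each member minus its mean over the 8 libraries, by class and library; points are genes, black lines medians, and Snrpn and Hnrnpa1l2-ps2 are not drawn. WT replicate 15 lies high for SR proteins and hnRNPs and not for snRNP proteins, whose WT medians all lie above those of KO.

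The same library was not apart in cell cycle genes or in depth, but lay at the end of a range in other measures. Its cell cycle genes summed to 2250 CPM, inside the WT range, and its total of 46982747 counts lay within the range of the other libraries. Protein-coding genes took 97.8% of its counts, the highest share of the 8 (97.4% to 97.8%). Its stem cell markers summed to 469 CPM, the lowest of the WT libraries and inside the KO range. The part of these measures in the excess was not tested. Other splicing genes differed in this: the median deviation in it was 0.12 for 11 exon junction complex genes and 0.10 for both the 33 tested regulators of alternative splicing and the 21 genes of early assembly, above every other library. It also lay above the others, by less, for SR-related proteins (0.06), the Prp19 list (0.05) and tri-snRNP genes (0.04). For LSm proteins (0.04), the SMN complex and snRNP assembly factors (0.02), regulators of SR proteins (0.05) and the minor spliceosome (0.0079) it was within the range of the others.

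Calls and medians changed without WT replicate 15. As it was the highest library for most SR proteins and hnRNPs, leaving it out lowers their WT means. Upward shifts in those classes follow from that and are no separate result. Of 10 SR proteins 1 was higher, Srsf6 (log2 fold change 0.23, edgeR adjusted p = 0.00261), and 1 lower, Srsf4 (-0.15, edgeR adjusted p = 0.0384), both named after their values were seen. The class median became 0.03, with 6 genes above 0, and that of the hnRNPs -0.02, with 7 genes above 0. The same 4 hnRNPs fell, and 5 snRNP proteins in place of 3: Snrpg and Snrpf stayed lower, Snrpb, Snrpc and Snrpd2 joined them (edgeR adjusted p = 0.0429, 0.0456 and 0.00507), and Snrpa1 was lost (0.0839). The background of calls without that library was 9.2% higher and 9.32% lower among all genes. The snRNP median was -0.11, against -0.10 with that library.

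Snrpn, the Sm-N protein gene of an imprinted locus and a close relative of Snrpb, varied more between libraries than any other tested member. Its coding sequence is 77.5% identical to that of Snrpb over the whole alignment and 80.5% over the aligned bases (GENCODE vM21), so the split of reads between these genes is uncertain too. Its KO libraries were 25.4, 4.33, 4.75 and 23.3 CPM and its WT libraries 2.95, 21.3, 1.36 and 2.43 CPM. Thus 3 libraries, KO replicates 5 and 8 and WT replicate 14, lay far above the rest, across genotypes, and the log2 difference of 1.00 ± 0.73 (SE, edgeR adjusted p = 0.412) did not pass. Without WT replicate 14 it became 2.69 (edgeR adjusted p = 0.00883). Snurf, a short reading frame on the same transcripts, is a gene of its own in the table and lies inside Snrpn (chromosome 7, minus strand, 59982495 to 60005199, GRCm38, against 59982495 to 60450177 for Snrpn). It was named after its values were seen.

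Counts assigned to Snurf ran the other way. They were 26.2, 55.9, 53.9 and 31.3 CPM in KO and 37.8, 20.5, 38.2 and 33.1 CPM in WT, lowest in the 3 libraries where Snrpn was high. The share of the summed counts that went to Snrpn was 42.7% to 51.0% in those 3 libraries and 3.44% to 8.09% in the other 5. The sum of both genes was 51.6, 60.3, 58.7 and 54.5 CPM in KO and 40.7, 41.8, 39.6 and 35.6 CPM in WT. Summed, every KO library exceeded every WT library, and the spread within a genotype was small. With the counts of both genes summed into 1 row, an alternative chosen after seeing the data, the sum was 1.43-fold higher in KO (0.51 ± 0.06 SE in log2 units, edgeR adjusted p = 1.39e-04), and without any 1 library it stayed between 0.47 and 0.55. Snhg14, a long noncoding transcript of the same strand that spans the locus, was at 8.73, 3.57, 3.42 and 5.25 CPM in KO and 2.30, 7.37, 3.06 and 2.59 CPM in WT, also highest in the 3 libraries with high Snrpn.

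**Figure D5:**
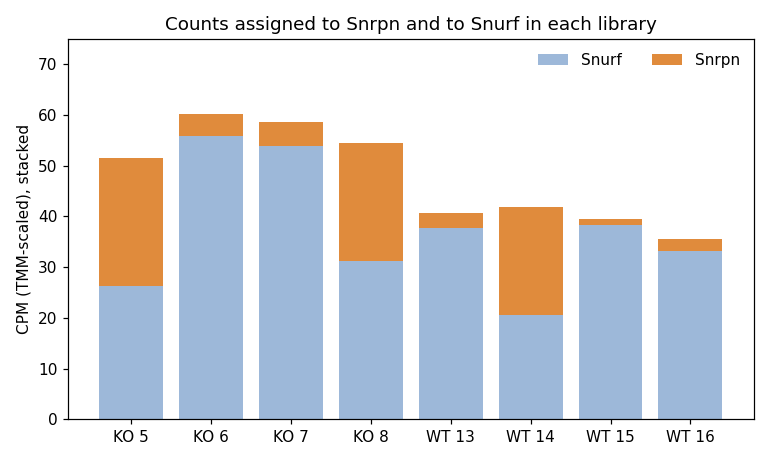
CPM assigned to Snurf and to Snrpn, stacked, in each library. The split between the genes changes sharply in KO 5, KO 8 and WT 14, while the sum is 51.6 to 60.3 in KO and 35.6 to 41.8 in WT.

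Splicing factors outside the 3 families were measured in the same fit. Over 10 lists of such genes, 17 of 167 tested were lower (10.2%, beside 8.26% of all genes) and 1 higher (0.599%, beside 7.63%). Of 10 LSm proteins, most of which form the ring on U6 RNA or act in mRNA decay while Lsm10 and Lsm11 belong to the U7 snRNP, 2 fell: Lsm4, at 66.7 ± 1.15 CPM against 78.7 ± 4.88 CPM in WT (± SD of 4 libraries), by a log2 difference of -0.24 with an SE of 0.05 (edgeR adjusted p = 0.00483), and Lsm5 by 0.26. In the Prp19 complex and catalytic step list 3 of 23 fell, the cyclophilin genes Ppil1 (-0.30) and Ppie (-0.19) and the ubiquitin ligase gene Prpf19 (-0.15). Early assembly factors had 2 of 21 lower, U2af1 (-0.14), which reads the 3′ splice site, and Phf5a (-0.17), an SF3B subunit outside the naming rule. One of 22 tri-snRNP genes fell, Prpf38a (-0.17), and 2 of 11 exon junction complex genes, Alyref (-0.22), an mRNA export adaptor, and Magohb (-0.23).

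Among 33 tested other regulators of alternative splicing 4 fell and 1 rose (beside 8.26% and 7.63% of all genes). Khsrp, a KH-domain protein, fell, averaging 126 ± 3.98 CPM over the 4 KO libraries against 150 ± 5.78 CPM over the 4 WT libraries (± SD), a log2 difference of -0.26 with an SE of 0.04 (edgeR adjusted p = 0.00119), Raly, a relative of Hnrnpc, fell by 0.21 and Ptbp1, the polypyrimidine tract-binding repressor, by 0.17. The fourth that fell was Ewsr1 (-0.12), and Qk, which encodes the KH-domain protein quaking, was the 1 gene that rose (0.73 ± 0.17 SE, edgeR adjusted p = 0.0104), both named after their values were seen. No gene passed among 15 of the SMN complex, which loads Sm rings onto RNA, and other snRNP assembly factors (the most abundant, Strap, was at 0.02 ± 0.06). None passed among 8 of the minor spliceosome (Zcrb1 0.07 ± 0.05). These lists had 1 and 0 genes at an unadjusted p under 0.05 in edgeR. Snrnp48 of the minor U11/U12 particle, whose symbol the rule does not cover and which was chosen after seeing the data, fell. It measured 29.7 ± 2.42 CPM over KO and 38.1 ± 0.988 CPM over WT libraries (log2 difference -0.36 ± 0.06, SE, edgeR adjusted p = 0.00113). Its 6 relatives named Snrnp did not pass, beside 8.26% of all genes lower.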

How the data were processed

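Polyadenylated RNA of 8 organoid libraries was sequenced from stranded libraries made from 1 µg of total RNA with a RIN above 7.0, per the labels' protocols. The authors deposited raw counts per gene, and beside them FPKM (per length and depth) and TPM (per length, scaled to a fixed sum per library). Per the submitters' processing notes the tools include TopHat2, TopHat, Bowtie2 and HTSeq and the build is GRCm38; their versions, the annotation and the use of strand in counting are not given in the sources used here. The deposited FPKM values were not used in a test. A value of 2 was more frequent than 1 in each library (673 to 772 genes against 548 to 622), which would arise if each mate of a pair was counted, so halved counts were fitted too. The members and gene lists were chosen with earlier results of these data known.

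Counts of all genes were analysed with edgeR 4.0.16 (R 4.3.3): filterByExpr, TMM factors, quasi-likelihood test of KO against WT with no covariate, and Benjamini-Hochberg adjustment over all 14945 genes tested, called at 0.05. The procedure was also run on simulated data, and how often it found differences as small as those above is not given here. Alternatives were 3 other scalings, DESeq2 1.42.0, limma-voom (limma 3.58.1), no filter, a stricter filter, halved counts, a threshold of 0.01 and leaving out each library. Library totals were 37182098 to 49256171 counts, and the limit set by 0 counts was taken as 3 counts (0.0609 to 0.0807 CPM). Over genes with a mean of at least 20 counts, no libraries agreed within sampling noise: chi-square per degree of freedom was 4.96 to 10.7 within KO, 11.1 to 24.7 within WT and 25.7 to 41.5 between them.

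Named with values were, per class, up to 8 called members with the smallest adjusted p and the 3 most abundant by TPM, each member the filter left out, and per pathway list up to 3 called genes, or the most abundant where none passed. Close paralogs were to be named by protein identity, for which coding-sequence identity (GENCODE vM21) of at least 80% was used instead, over 52 of 53 members. Other members were described as well, after their values were seen. Nhp2l1 and Cenatac were not matched in the table by those symbols. Deviations are log2 of CPM plus 0.5.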

Additional observations from a re-analysis of the deposited data

Results flagged for a closer look

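In 7 of 104 groups of 4 libraries (52 members in each genotype) 1 library lay far from the other 3, measured by its gap to the nearest of them over the whole range (Dixon's criterion at 95%). Chance gives such a gap in about 1 in 20 groups. In 3 of the 7 the library was WT replicate 15, which was high: Srsf1 at 178.56 CPM against 138 to 142 CPM, Hnrnpa2b1 at 779.26 against 634 to 654 CPM, and Hnrnpab at 445.869 against 360.2 to 369 CPM. In WT replicate 14, Snrpn was high at 21.3096 CPM against 1.36 to 2.95 CPM, and Sf3b1 was low at 387.856 CPM against 418 to 422 CPM. In KO, Srsf4 was low in replicate 7 at 60.362 CPM against 65.6 to 65.9 CPM, and Sf3b3 was high in replicate 8 at 91.7324 CPM against 86.9 to 87.4 CPM.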

How the results depend on the processing

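Across 16 alternatives the 52 members gave 831 values (Hnrnpa1l2-ps2 did not pass the stricter filter): 801 stayed on their side of the threshold, 22 lost the call and 8 gained one. The sign changed in 31 of the 831, over 14 members, 12 of them without WT replicate 15; none of these was called in either fit, and all had a reported log2 fold change within 0.06 of 0. At an adjusted p under 0.01, 1 hnRNP and 1 snRNP protein were lower. Leaving out 1 library at a time, 2 to 5 hnRNPs and 1 to 5 snRNP proteins were lower and 0 to 1 snRNP proteins higher (Snrpn without WT replicate 14), and 0 to 1 SR proteins were higher and 0 to 1 lower, the 1 in each case without WT replicate 15. Only 2 hnRNPs were lower without KO replicate 5, 7 or 8 or WT replicate 13, and only 1 snRNP protein without KO replicate 7 or 8. Hnrnph1 was called lower without WT replicate 14 (edgeR adjusted p = 0.027) and Snrpd1 without WT replicate 16 (0.0486). Under the 3 other scalings and with no filter 2 snRNP proteins were lower in place of 3. DESeq2 and limma-voom gave 4 hnRNPs and 3 snRNP proteins lower. No paired analysis was possible because the genotypes share no library number. Genotype cannot be told apart from mouse or organoid line, and differences near 10% rest on 4 libraries a group.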
